A study of Bos taurus with 40 samples.

Results

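The ipsilateral uterine horn of heifers was compared between day 13 and day 7 after estrus, through the RNA of its endometrium, the inner lining of the uterus. The libraries were chosen by their labels alone: 5 ipsilateral libraries of day 7 and 5 of day 13, which make 10 of the 40 samples of the series. The whole series took endometrium from both horns of 20 synchronized heifers on days 5, 7, 13 and 16, with 5 heifers a day. The labels attach the word pregnancy to each day, whereas the series' design counts days from estrus. The presence of an embryo is therefore not known here. Day 7 and day 13 come from different heifers, so nothing pairs the groups, and no treatment other than synchronization of the cycle is named. The ipsilateral horn is the one on the side of the ovary that carries the corpus luteum, the gland that forms after ovulation and secretes progesterone.

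Through the luteal phase the endometrium of cattle is exposed to progesterone, which acts through its nuclear receptor and is known to lower that receptor in the epithelium over time. The glands and the lining epithelium secrete histotroph, a mixture of proteins, sugars, amino acids and lipids that feeds the embryo before it attaches. In a pregnant cow the embryo leaves the oviduct, becomes a blastocyst in the first week and elongates in the second, so days 7 and 13 fall on either side of the change from a spherical embryo to the start of elongation.

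Each library was sequenced as poly(A) RNA, and the table gives raw counts of reads per gene. Library totals were 32.6 ± 2.89 M reads (SD, n = 5) on day 7 and 29.2 ± 2.23 M on day 13, which overlapped (exact two-sided permutation test, p = 0.0794, adjusted over 4 library measures p = 0.159). The share of reads in the mitochondrial row was 0.291% ± 0.111 (SD, n = 5) on day 7 and 0.490% ± 0.0302 on day 13, with no overlap (exact permutation p = 0.00794, the smallest these 5 and 5 libraries can give, adjusted p = 0.0318). Whether either measure takes part in the results below was not tested, apart from a fit with the library total as a covariate. On the first principal component of all 40 libraries, which held 47.5% of the variance, the day 7 libraries lay between 27.3 and 41.0 and the day 13 libraries between -39.0 and -23.7. The day 13 library nearest to day 7 was that of heifer 5-167. Tags that link the horns did not match the data in every heifer: the ipsilateral day 7 libraries 4-064, 5-117 and 6-338 correlated with the contralateral library of their own tag at -0.05, -0.32 and -0.35, and with that of another of these 3 tags at 0.82, 0.88 and 0.85 (deviations from the group means over 15176 genes). On day 13, library 6-203 correlated best with contralateral 5-167 (0.72) and 8-275 with contralateral 6-203 (0.70). The comparison of days within the ipsilateral horn uses no tag. Levels are CPM, the counts of a gene as a share of the library's reads times 1e+06, scaled with TMM factors over all 40 libraries, and they compare libraries for 1 gene, not genes with each other. Where 5 values of a day are listed, they follow the heifer tags 2-1337, 2-371, 4-064, 5-117 and 6-338 on day 7 and 4-1314, 5-140, 5-167, 6-203 and 8-275 on day 13.

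Epithelial and stromal markers, which define endometrium, were present in every library. The 22 epithelial markers summed to 1884 to 2435 CPM on day 7 and 1982 to 2728 CPM on day 13, and the 16 markers of stromal fibroblasts to 12339 to 24279 and 14571 to 19139 CPM. Markers of smooth muscle, 16 genes, summed to 743 to 1244 CPM on day 7 and 976 to 1686 CPM on day 13. RNA came from homogenized tissue, so all its cell types are pooled in each library. In bulk tissue, fewer cells of a type and less RNA per cell cannot be told apart.

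Between day 7 and day 13 transcripts of IGFBP1, CYP26A1, MUC13 and PTGS2 rose in the ipsilateral endometrium, and those of ANPEP, WNT7A, LTF and 29 of 37 genes of cell division fell. None of 40 interferon-stimulated genes passed the test in either direction. Of 18807 genes tested, 5412 passed edgeR's quasi-likelihood test at a Benjamini-Hochberg adjusted p below 0.05, which is 28.8%. Of these, 2597 rose (13.8% of the genes tested) with a median log2 fold change of 0.62, and 2815 fell (15%) with a median of -0.75. At least 2-fold, 721 genes rose (3.83%) and 1023 fell (5.44%). At least 4-fold changes numbered 197 up and 353 down, and at least 16-fold changes 29 up and 57 down. The median log2 fold change over all genes tested was 0.0075. With the log2 library total as a covariate 3234 genes passed, and of the genes given below with CPM values or a standard error AHSP, CAPS, DKK1, EPCAM, ESR1, KCNMB1, MME, MYH11, RSPH1 and SPP1 then did not, with adjusted p = 0.0538, 0.152, 0.125, 0.0786, 0.0828, 0.0504, 0.132, 0.143, 0.313 and 0.137 in that order. The p-values measure the spread between these libraries, which the labels give as separate heifers.

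**Figure D1:**
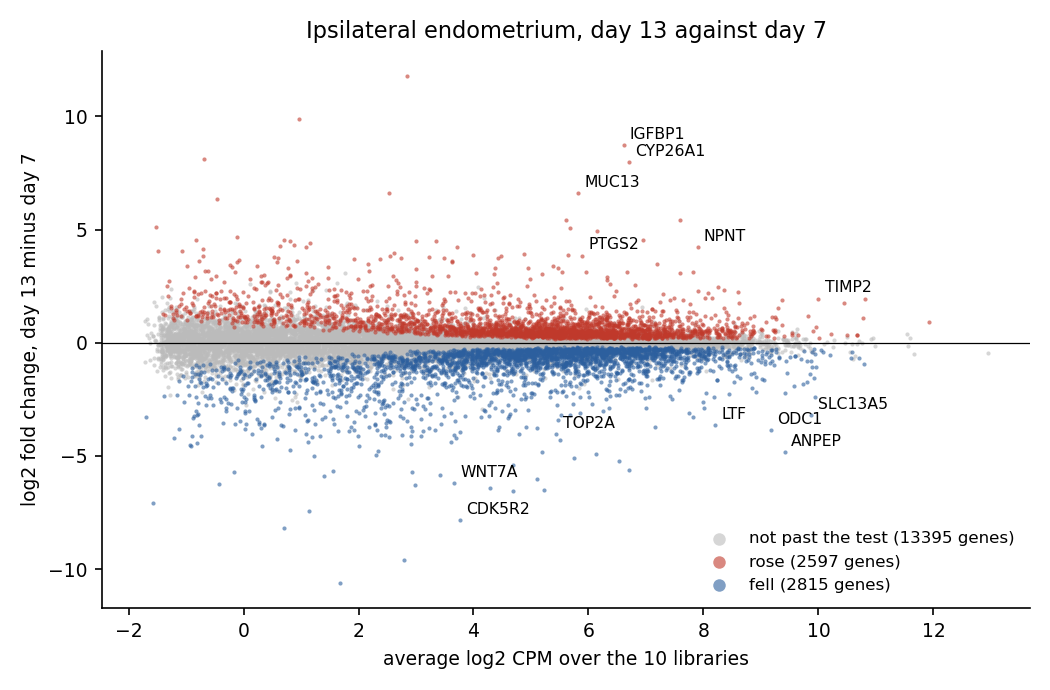
Log2 fold change from day 7 to day 13 (y) against average log2 CPM (x) for the 18807 genes tested in the ipsilateral horn, 1 point a gene. The 2597 genes that rose are red, the 2815 that fell are blue, and the genes labelled in the plot reach from CDK5R2 at -7.83 to IGFBP1 at 8.73.

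The genes with the largest gains were low on day 7 in all 5 heifers. IGFBP1, the insulin-like growth factor binding protein 1 that is secreted by the uterine epithelium of ruminants, stood at 0.107, 1.33, 0.555, 0 and 0.165 CPM on day 7 and 343, 314, 51.6, 68.8 and 183 CPM on day 13 (log2 fold change 8.73 ± 0.91 SE, 426-fold higher, adjusted p = 6.48e-05). Every day 13 value was above every day 7 value, although heifers 5-167 and 6-203 had far less than the others of their day. CYP26A1, the enzyme that breaks down retinoic acid, stood at 0.499, 1.91, 0.123, 0.877 and 0.562 CPM on day 7 and 239.6, 225, 152, 249 and 166 CPM on day 13 (log2 fold change 7.97 ± 0.50 SE, 251-fold higher, adjusted p = 3.33e-06). The day 13 values of CYP26A1 lay close together and did not overlap with day 7. Heifer 2-371 had the highest day 7 value of both genes, and without its library the log2 fold changes were 9.85 for IGFBP1 and 8.62 for CYP26A1.

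MUC13, a mucin anchored in the apical membrane, stood at 3.67, 1.44, 0.37, 0.0566 and 0.297 CPM on day 7 and 148, 111, 90.1, 141 and 64.3 CPM on day 13 (log2 fold change 6.60 ± 0.75 SE, 97.2-fold higher, adjusted p = 0.00011). Its 2 highest day 7 values belonged to heifers 2-1337 and 2-371, and without library 2-1337 the log2 fold change was 7.65. CALB1, the calcium-buffering protein calbindin, stood at 0, 0.111, 0.247, 0.113 and 0.0661 CPM on day 7 and 13.8, 20.6, 5.93, 6.71 and 9.06 CPM on day 13 (log2 fold change 6.63 ± 0.60 SE, 98.9-fold higher, adjusted p = 2.67e-05). CFTR, the chloride channel that drives fluid secretion, stood at 2.71, 2.47, 4.69, 4.75 and 7.57 CPM on day 7 and 163, 157, 69, 141 and 154 CPM on day 13 (log2 fold change 4.95 ± 0.36 SE, 30.9-fold higher, adjusted p = 7.29e-06). In both, no day 13 value came near the day 7 values, and heifer 5-167 had the lowest day 13 value.

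MEP1B, a subunit of the membrane metalloprotease meprin, stood at 15.7, 4.6, 8.55, 6.79 and 7.77 CPM on day 7 and 620.1, 672, 174, 170.4 and 219 CPM on day 13 (log2 fold change 5.43 ± 0.56 SE, 43.2-fold higher, adjusted p = 5.93e-05). The zinc transporter SLC39A2 stood at 1.46, 2.69, 5.68, 2.21 and 2.61 CPM on day 7 and 110.3, 173, 19.4, 101 and 84.9 CPM on day 13 (log2 fold change 5.06 ± 0.57 SE, 33.5-fold higher, adjusted p = 0.000105). Both separated the days completely but varied on day 13, by over 3-fold among the 5 heifers. NPNT, the integrin ligand nephronectin of basement membranes, stood at 26.8, 27.7, 24.7, 17.6 and 22.5 CPM on day 7 and 523, 444, 290.4, 626 and 364 CPM on day 13 (log2 fold change 4.23 ± 0.23 SE, 18.8-fold higher, adjusted p = 1.55e-06). CHGA, the granule protein chromogranin A, stood at 10.02, 7.65, 17.9, 4.98 and 9.88 CPM on day 7 and 247, 401, 81, 170.1 and 268 CPM on day 13 (log2 fold change 4.54 ± 0.47 SE, 23.3-fold higher, adjusted p = 6.18e-05). HKDC1, a hexokinase-like protein of glucose metabolism, ranged over 0.958 to 7.78 CPM on day 7 and 23.5 to 65.7 CPM on day 13 (log2 fold change 3.84 ± 0.55 SE, 14.3-fold higher, adjusted p = 0.000469), and was at 4.69 (log2 fold change) without day 7 library 5-117, where it was highest. None of these genes had overlapping days. For the largest gains and losses described here, days without overlap were a condition of choice. Of 18807 genes tested 5412 passed, and 3427 of these had an average log2 CPM of at least 2 and no overlap. Overlap was not counted among genes that did not pass.

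The largest losses included signalling, membrane and lipid-cleaving proteins that were expressed in all 5 day 7 libraries. CDK5R2, an activator of the kinase CDK5, stood at 49, 21.3, 12.9, 28.1 and 22.1 CPM on day 7 and 0, 0.162, 0, 0.152 and 0.237 CPM on day 13 (log2 fold change -7.83 ± 0.61 SE, 228-fold lower, adjusted p = 1.24e-05). WNT7A, a WNT ligand of the uterine epithelium, stood at 22.3, 21.3, 29.4, 23.9 and 26.7 CPM on day 7 and 0.15, 0.129, 0.797, 0.577 and 0 CPM on day 13 (log2 fold change -6.20 ± 0.58 SE, 73.5-fold lower, adjusted p = 3.25e-05). WNT7A was even among the day 7 heifers and under 1 CPM in every day 13 library. SERPINB12, a protease inhibitor, stood at 6.42, 52.8, 53.2, 109 and 30.2 CPM on day 7 and 0.0751, 0.842, 0.208, 0.364 and 1.19 CPM on day 13 (log2 fold change -6.54 ± 0.83 SE, 92.9-fold lower, adjusted p = 0.000211), and at -4.75 with the library total as a covariate. UPK1B, a membrane plaque protein of lining epithelia, stood at 259, 210.1, 122, 283 and 131 CPM on day 7 and 7.24, 2.65, 6.27, 2.61 and 1.66 CPM on day 13 (log2 fold change -5.63 ± 0.47 SE, 49.7-fold lower, adjusted p = 1.67e-05).

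LRG1, a secreted leucine-rich glycoprotein, stood at 21.2, 15.4, 21.7, 27 and 18.4 CPM on day 7 and 0.0751, 0.129, 0.173, 0.0304 and 1.39 CPM on day 13 (log2 fold change -5.85 ± 0.72 SE, 57.5-fold lower, adjusted p = 0.000185). Heifer 8-275 carried most of its day 13 signal, and without that library the log2 fold change was -7.61. Phospholipases A2 release fatty acids from membranes. PLA2G3 stood at 56.5, 48.1, 67.7, 32.8 and 43.1 CPM on day 7 and 0.751, 1.0, 2.22, 0.698 and 1.15 CPM on day 13 (log2 fold change -5.42 ± 0.33 SE, 42.7-fold lower, adjusted p = 3.15e-06). PLA2G4D ranged over 60.6 to 131 CPM on day 7 and 1.49 to 5.98 CPM on day 13 (log2 fold change -5.07 ± 0.38 SE, 33.6-fold lower, adjusted p = 1.06e-05). Neither overlapped between the days, which their choice required. Another member, PLA2G4A, the cytosolic enzyme that supplies arachidonic acid for prostaglandins, went the other way and is given with that pathway.

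Several abundant genes fell too. ANPEP, a membrane aminopeptidase, stood at 1047, 1237, 1460.1, 1347 and 1437 CPM on day 7 and 33.6, 30.9, 63.6, 49.2 and 54.8 CPM on day 13 (log2 fold change -4.82 ± 0.22 SE, 28.3-fold lower, adjusted p = 7.86e-07). ODC1, the first enzyme of polyamine synthesis, stood at 1051, 819, 995, 1103 and 1419.6 CPM on day 7 and 75.3, 72, 71.5, 64.1 and 91.5 CPM on day 13 (log2 fold change -3.85 ± 0.16 SE, 14.4-fold lower, adjusted p = 4.9e-07). It was chosen for description after its values were seen. SLC13A5, the plasma membrane citrate transporter, stood at 1473, 1489, 2085, 1389 and 1988 CPM on day 7 and 124, 206, 241, 120.0 and 223 CPM on day 13 (log2 fold change -3.21 ± 0.23 SE, 9.24-fold lower, adjusted p = 7.29e-06). In these 3 genes the lowest day 7 value was more than 5 times the highest day 13 value. The fatty acid activating enzyme ACSL4 ranged over 1339 to 2012 CPM on day 7 and 249 to 376 CPM on day 13 (log2 fold change -2.38 ± 0.16 SE, 5.21-fold lower, adjusted p = 4.25e-06). Smaller losses among the most abundant changed genes were those of the mitochondrial enzyme OGDH at -1.57 ± 0.16 SE, of GM2A, the activator of lysosomal ganglioside breakdown, at -1.37 ± 0.26 SE and of the ubiquitin ligase adapter WSB1 at -1.06 ± 0.17 SE (log2 fold changes). The abundant gene TXNIP, a glucose-responsive inhibitor of thioredoxin, rose from 886 to 1443 CPM on day 7 to 1631 to 2886 CPM on day 13 (log2 fold change 1.08 ± 0.17 SE, 2.12-fold higher, adjusted p = 0.000813).

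**Figure D2:**
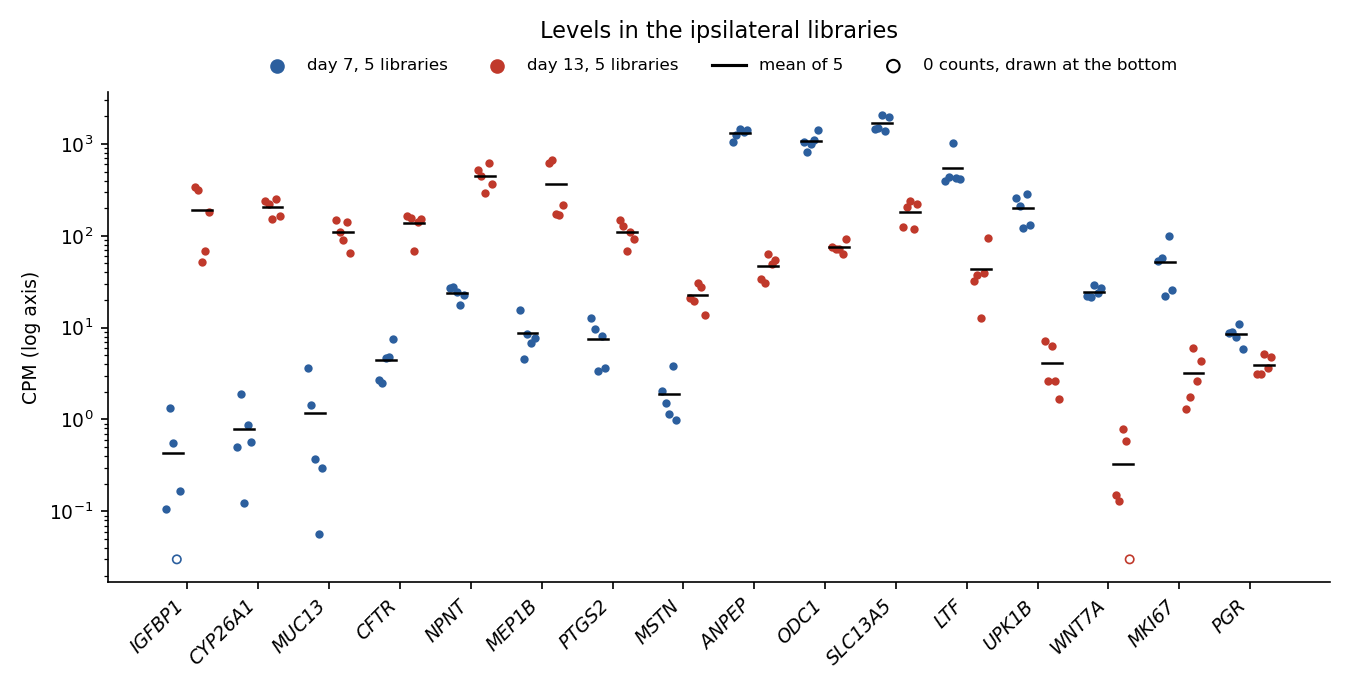
CPM on a log axis (y) of 16 genes in the 5 day 7 libraries (blue) and the 5 day 13 libraries (red), with the mean of 5 as a bar and libraries with 0 counts as open circles at the bottom. In all 16 genes the days do not overlap, which for many of them was a condition of choice. They lie closest together in PGR.

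Genes of secreted products changed in both directions, with more gains. Of 40 tested members of the list of secreted products of the glands and lining, 15 rose, 8 fell and 17 did not pass. The median log2 fold change was 0.37, and 13.8% and 15% of all genes rose and fell. GRP, the gastrin-releasing peptide, stood at 469, 349.9, 729, 812 and 763 CPM on day 7 and 2341, 2515, 1149.9, 2410.2 and 2205 CPM on day 13 (log2 fold change 1.77 ± 0.27 SE, 3.41-fold higher, adjusted p = 0.000712). TIMP2, an inhibitor of matrix metalloproteases and a known part of uterine fluid, ranged over 339 to 519 CPM on day 7 and 1159 to 2124 CPM on day 13 (log2 fold change 1.95 ± 0.19 SE, 3.87-fold higher, adjusted p = 4.51e-05). CST6, a secreted inhibitor of cysteine proteases, ranged over 6.44 to 13.7 CPM on day 7 and 52 to 97.8 CPM on day 13 (log2 fold change 3.12 ± 0.23 SE, 8.71-fold higher, adjusted p = 8.62e-06). All 3 separated the days.

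MSTN, myostatin of the TGF-beta family, stood at 2.03, 1.52, 1.14, 3.82 and 0.991 CPM on day 7 and 21.3, 19.3, 30.3, 28 and 13.9 CPM on day 13 (log2 fold change 3.55 ± 0.38 SE, 11.7-fold higher, adjusted p = 8.14e-05). RBP4, the retinol carrier, ranged over 72 to 103 CPM on day 7 and 153 to 265 CPM on day 13 (log2 fold change 1.40 ± 0.17 SE, 2.64-fold higher, adjusted p = 0.000151). Neither overlapped between the days. CLU, the chaperone clusterin, ranged over 432 to 747 CPM on day 7 and 735 to 1725 CPM on day 13 (log2 fold change 1.16 ± 0.22 SE, 2.24-fold higher, adjusted p = 0.0025), with 1 day 13 library, that of heifer 5-167, inside the day 7 range. DKK1, a secreted WNT antagonist, ranged over 3.62 to 21.5 CPM on day 7 and 17.2 to 58.1 CPM on day 13 (log2 fold change 1.77 ± 0.46 SE, 3.42-fold higher, adjusted p = 0.0139) and overlapped.

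The main loss among secreted products was LTF, lactoferrin, an iron-binding defence protein. LTF stood at 399, 434, 1032, 426 and 420.3 CPM on day 7 and 31.9, 37.4, 12.6, 39.5 and 94.6 CPM on day 13 (log2 fold change -3.65 ± 0.50 SE, 12.6-fold lower, adjusted p = 0.000364). Heifer 4-064 had more than 2 times the LTF of the other day 7 heifers. TFF3, a trefoil peptide of mucous surfaces, ranged over 17 to 35 CPM on day 7 and 1.2 to 3.61 CPM on day 13 (log2 fold change -3.08 ± 0.34 SE, 8.46-fold lower, adjusted p = 8.82e-05). SPP1, osteopontin, a ligand of integrins, stood at 5.99, 20.2, 13.5, 72.2 and 15.1 CPM on day 7 and 3.83, 1.68, 5.03, 1.0 and 2.17 CPM on day 13 (log2 fold change -3.23 ± 0.68 SE, 9.39-fold lower, adjusted p = 0.00497), and without day 7 library 5-117, where it was highest, at -2.32. SERPINA14, the uterine serpin of ruminants, ranged over 5.35 to 21.5 CPM on day 7 and 5.34 to 63.2 CPM on day 13 and did not pass (1.46 ± 0.60 SE, adjusted p = 0.0917). It passed without day 7 library 5-117 (1.87, adjusted p = 0.0496) and without day 13 library 5-167 (1.73, adjusted p = 0.0226).

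In the insulin-like growth factor system, binding proteins control how much free growth factor reaches its receptor. Here 6 of 19 tested members rose and 1 fell (median 0.14), beside 13.8% and 15% of all genes. Beside IGFBP1, IGFBP2 ranged over 8.68 to 23.1 CPM on day 7 and 32.7 to 67 CPM on day 13 (log2 fold change 1.55 ± 0.31 SE, 2.94-fold higher, adjusted p = 0.00334). IRS2, the docking protein of the insulin receptor, ranged over 3.73 to 9.58 CPM on day 7 and 24.5 to 48.6 CPM on day 13 (log2 fold change 2.24 ± 0.27 SE, 4.74-fold higher, adjusted p = 0.000161). Both separated the days. IGFBP3 was the 1 member that fell, over 54.3 to 92.3 CPM on day 7 and 22.1 to 55.7 CPM on day 13 (log2 fold change -1.04 ± 0.23 SE, 2.06-fold lower, adjusted p = 0.00693), and 1 day 13 library reached into the day 7 range.

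The receptor of progesterone was lower on day 13. PGR, the nuclear progesterone receptor, stood at 8.67, 9.0, 7.96, 10.9 and 5.78 CPM on day 7 and 3.15, 3.14, 5.13, 3.61 and 4.78 CPM on day 13 (log2 fold change -1.10 ± 0.21 SE, 2.15-fold lower, adjusted p = 0.00278). No day 13 value reached the lowest day 7 value. ESR1, estrogen receptor alpha, stood at 14.6, 14.7, 21.6, 20.6 and 16.9 CPM on day 7 and 8.37, 8.8, 12.3, 9.59 and 14.6 CPM on day 13 (log2 fold change -0.72 ± 0.18 SE, 1.65-fold lower, adjusted p = 0.0116), and its highest day 13 value lay just above the lowest of day 7. OXTR, the oxytocin receptor, stood at 9.24, 12.5, 2.75, 20.4 and 3.93 CPM on day 7 and 1.05, 1.0, 7.94, 5.07 and 2.04 CPM on day 13 and did not pass (-1.54 ± 0.68 SE, adjusted p = 0.115). Without day 13 library 5-167, which had its highest value of that day, OXTR passed (-2.07, adjusted p = 0.0460).

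Of the 25 tested genes of steroid receptors and signalling, 5 rose and 7 fell (median -0.05), beside 13.8% and 15% over all genes. The membrane progestin receptors of the PAQR family moved in opposite directions. PAQR5 ranged over 0.25 to 0.494 CPM on day 7 and 2.04 to 4.25 CPM on day 13 (log2 fold change 2.99 ± 0.29 SE, 7.93-fold higher, adjusted p = 4.04e-05). PAQR8 ranged over 46.1 to 69.4 CPM on day 7 and 17.5 to 27.8 CPM on day 13 (log2 fold change -1.39 ± 0.15 SE, 2.63-fold lower, adjusted p = 7.49e-05). FKBP5, a co-chaperone that steroid receptors induce, fell with overlapping ranges (-0.80 ± 0.20 SE). Smaller changes were those of HSD17B12, an enzyme of steroid and lipid reduction (-0.66 ± 0.09 SE), of PGRMC2 (0.48 ± 0.09 SE) and of PAQR6 (0.57 ± 0.10 SE), all in log2 fold change.

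In the prostaglandin pathway, which makes the signals that end the luteal phase, the gene of the entry enzyme rose. PTGS2, the inducible cyclooxygenase, stood at 12.8, 9.75, 3.39, 8.09 and 3.63 CPM on day 7 and 147, 129, 68.8, 109.8 and 91.3 CPM on day 13 (log2 fold change 3.86 ± 0.40 SE, 14.5-fold higher, adjusted p = 6.04e-05). PLA2G4A, which frees its substrate, ranged over 45 to 61.1 CPM on day 7 and 81.4 to 151 CPM on day 13 (log2 fold change 1.13 ± 0.15 SE, 2.19-fold higher, adjusted p = 0.000337). Neither gene overlapped between the days. PTGES2, a prostaglandin E synthase, fell over 17.4 to 20.7 CPM on day 7 and 8.79 to 13.5 CPM on day 13 (log2 fold change -0.72 ± 0.13 SE, 1.65-fold lower, adjusted p = 0.00177). Of 21 tested members of the pathway 3 rose, 3 fell and 15 did not pass (median 0.06), and 28.8% of all genes passed.

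**Figure D3:**
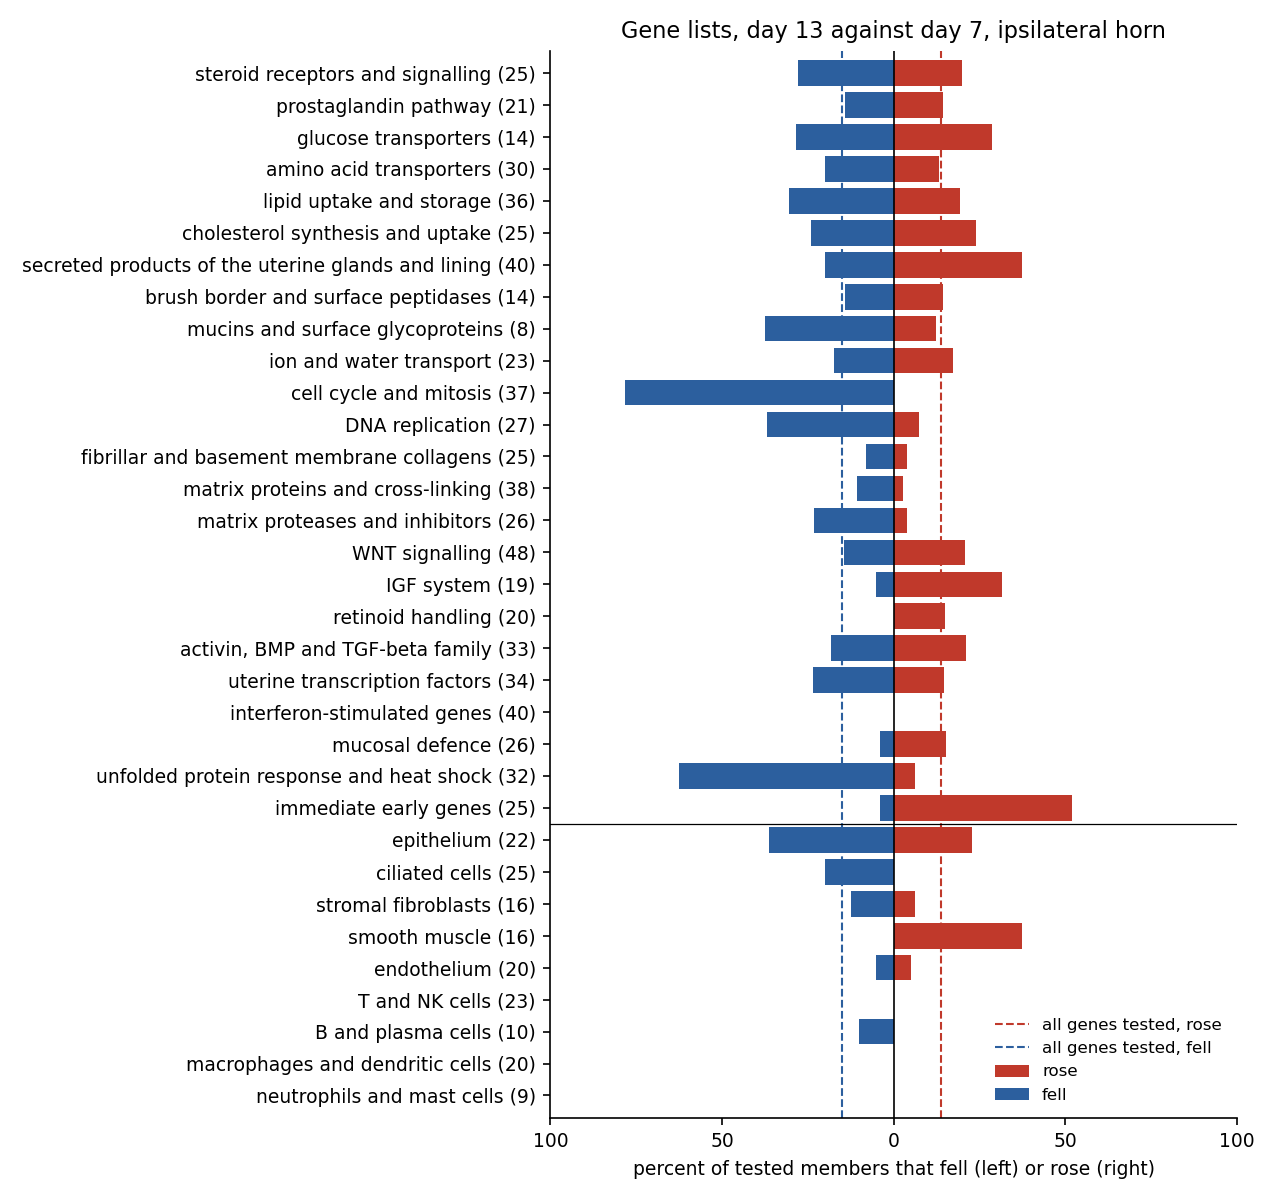
Percent of tested members that rose (red, right) or fell (blue, left) in each of 33 gene lists with at least 5 tested members, with the number tested in brackets, pathway lists above the line and cell type lists below. Dashed lines give the shares over all genes tested, 13.8% and 15%, and the long blue bars are cell cycle and mitosis, with 29 of 37, and the unfolded protein response, with 20 of 32.

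Among 14 sugar transporters tested, 4 rose and 4 fell (median 0.06), beside 13.8% and 15% of all genes. SLC5A1, the sodium-coupled glucose transporter, stood at 20.9, 25.7, 24.7, 14.5 and 14.5 CPM on day 7 and 141, 158, 79.4, 169 and 144 CPM on day 13 (log2 fold change 2.78 ± 0.24 SE, 6.88-fold higher, adjusted p = 2.13e-05). SLC2A1, the facilitative glucose transporter GLUT1, ranged over 60.8 to 71.1 CPM on day 7 and 89.7 to 186 CPM on day 13 (log2 fold change 1.03 ± 0.17 SE, 2.04-fold higher, adjusted p = 0.00124). SLC5A11, a sodium-coupled transporter of myo-inositol, ranged over 0.143 to 0.264 CPM on day 7 and 0.624 to 6.68 CPM on day 13 (log2 fold change 4.24 ± 0.56 SE, 18.9-fold higher, adjusted p = 0.000293). These 3 rose without overlap. SLC2A12 was at 0.49 (log2 fold change), with adjusted p up to 0.0794 when 1 library was left out (2-1337, 2-371, 4-064, 4-1314 or 5-140).

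SLC2A5, a fructose transporter, stood at 5.67, 1.44, 1.33, 12.6 and 3.77 CPM on day 7 and 0.0751, 0.194, 0.0693, 0.0607 and 0 CPM on day 13 (log2 fold change -5.89 ± 0.85 SE, 59.1-fold lower, adjusted p = 0.000483), and was at -5.16 without day 7 library 5-117 and at -6.51 without day 13 library 5-140. The table holds a second entry of that name, SLC2A5-2, which fell as well (adjusted p = 8.51e-05). Its log2 fold change was -6.53 to -5.72 over the alternatives. Whether these entries share reads was not tested, so the size of the change is uncertain. SLC2A3, the facilitative transporter GLUT3, fell over 32.8 to 103 CPM on day 7 and 23.1 to 34.7 CPM on day 13 (log2 fold change -1.12 ± 0.28 SE, 2.18-fold lower, adjusted p = 0.011) with overlap. SLC5A9 fell as well (-0.87 ± 0.12 SE). SLC2A8 was at -0.52, with adjusted p up to 0.0693 without 1 of 2-1337, 2-371, 5-117, 4-1314, 5-167 and 8-275.

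Amino acid carriers gave 4 gains and 6 losses of 30 tested (median -0.06), beside 13.8% and 15% of all genes. The gains numbered 2 without library 2-371, 4-1314 or 5-140. The proline carrier SLC6A20 stood at 172, 138, 58.7, 276 and 70.3 CPM on day 7 and 22, 14.9, 28.1, 14.3 and 19.5 CPM on day 13 (log2 fold change -2.87 ± 0.41 SE, 7.29-fold lower, adjusted p = 0.000494). The glutamine carrier SLC38A1 ranged over 41.4 to 128 CPM on day 7 and 16.2 to 40.2 CPM on day 13 (log2 fold change -1.66 ± 0.32 SE, 3.16-fold lower, adjusted p = 0.0028), and the taurine carrier SLC6A6 over 53.2 to 98.9 CPM on day 7 and 36.5 to 47.2 CPM on day 13 (log2 fold change -1.01 ± 0.15 SE, 2.01-fold lower, adjusted p = 0.00069). All 3 were lower in every day 13 library. Over all 307 solute carrier genes tested, 50 rose and 67 fell (median -0.01), beside the same shares of all genes.

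Lipid uptake and storage genes gave 7 gains and 11 losses of 36 tested (median -0.10), beside 13.8% and 15% of all genes. The gains numbered 4 without library 5-117 or 5-140. The sum of the list, ACSL4 included, was 3722 to 4629 CPM on day 7 and 2370.1 to 2567 CPM on day 13. SLC27A2, a fatty acid transporter and activating enzyme, stood at 1.96, 2.77, 1.79, 2.32 and 2.11 CPM on day 7 and 33.4, 18.7, 8.56, 7.86 and 16 CPM on day 13 (log2 fold change 2.95 ± 0.39 SE, 7.71-fold higher, adjusted p = 0.000299). MOGAT1, an enzyme of triglyceride synthesis, fell over 3.82 to 6.94 CPM on day 7 and 0.577 to 2.36 CPM on day 13 (log2 fold change -1.94 ± 0.33 SE, 3.84-fold lower, adjusted p = 0.00137). LPL, the lipoprotein lipase, fell over 3.25 to 12.4 CPM on day 7 and 0.676 to 3.36 CPM on day 13 (log2 fold change -2.06 ± 0.49 SE, 4.17-fold lower, adjusted p = 0.00925), with 1 pair of libraries overlapping.

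Of 25 genes of cholesterol synthesis and uptake 6 rose and 6 fell (median -0.01), beside 13.8% and 15% of all genes. With the library total as a covariate 6 rose and 2 fell. HMGCS1, at the start of the route, ranged over 69.8 to 116 CPM on day 7 and 141 to 207 CPM on day 13 (log2 fold change 1.02 ± 0.16 SE, 2.02-fold higher, adjusted p = 0.000707). SQLE, the squalene epoxidase, ranged over 29.4 to 62.6 CPM on day 7 and 61.6 to 82.1 CPM on day 13 (log2 fold change 0.84 ± 0.20 SE, 1.79-fold higher, adjusted p = 0.00929) and overlapped in 1 day 7 library. TM7SF2, a sterol reductase near the end, ranged over 79.5 to 119 CPM on day 7 and 46.7 to 51.2 CPM on day 13 (log2 fold change -0.97 ± 0.10 SE, 1.96-fold lower, adjusted p = 5.51e-05). The synthesis enzymes IDI1 (0.58 ± 0.13 SE), CYP51A1 (0.73 ± 0.16 SE) and SC5D (0.52 ± 0.09 SE) rose as well.

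Of 14 surface peptidases tested, ANPEP and MME fell and 2 rose, DPP4 among them (median -0.10), beside 15% and 13.8% of all genes. DPP4, a dipeptidyl peptidase, ranged over 1.19 to 3.39 CPM on day 7 and 2.92 to 12.3 CPM on day 13 (log2 fold change 1.86 ± 0.40 SE, 3.63-fold higher, adjusted p = 0.00544), with heifer 8-275 inside the day 7 range. MME, neprilysin, ranged over 68.2 to 106 CPM on day 7 and 26.1 to 66.2 CPM on day 13 (log2 fold change -0.94 ± 0.25 SE, 1.92-fold lower, adjusted p = 0.0154).

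Of 8 tested mucins and surface glycoproteins MUC13 rose, and MUC4, MUC20 and CD24 fell, beside 13.8% and 15% of all genes. A further member passed without library 6-338, 4-1314 or 5-167, which made 2 gains. MUC20 stood at 32.5, 24, 27, 16.6 and 56.6 CPM on day 7 and 3.27, 3.01, 4.37, 3.4 and 2.27 CPM on day 13 (log2 fold change -3.26 ± 0.31 SE, 9.59-fold lower, adjusted p = 4.13e-05). MUC4 ranged over 0.864 to 4.36 CPM on day 7 and 0.121 to 0.339 CPM on day 13 (log2 fold change -3.28 ± 0.52 SE, 9.72-fold lower, adjusted p = 0.000882), and was at -3.96 with the library total as a covariate. CD24, a small mucin-like adhesion molecule, ranged over 308 to 571 CPM on day 7 and 11.9 to 99.7 CPM on day 13 (log2 fold change -2.88 ± 0.47 SE, 7.35-fold lower, adjusted p = 0.00103). None of the 3 overlapped between the days.

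In ion and water transport 4 of 23 rose and 4 fell (median 0.30), beside 13.8% and 15% of all genes. The gains numbered 2 without library 2-1337 or 6-338, and the losses 2 without 2-371, 4-064, 6-338, 4-1314 or 5-140. SCNN1A, the alpha subunit of the epithelial sodium channel, which absorbs sodium and water, stood at 84.2, 82.1, 105, 74.1 and 113 CPM on day 7 and 8.82, 11.5, 25.7, 9.47 and 16.2 CPM on day 13 (log2 fold change -2.68 ± 0.28 SE, 6.41-fold lower, adjusted p = 6.61e-05). It moved against CFTR, and neither overlapped between the days.

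Most genes of cell division fell. Of the 37 tested members of the cell cycle and mitosis list, 29 fell and 0 rose, beside 15% and 13.8% of all genes. The median log2 fold change was -2.53. By edgeR 3 members were higher at an unadjusted p below 0.05, by DESeq2 and limma-voom 0 rose, and without day 7 library 5-117 1 member rose. MKI67, the standard marker of proliferating cells, stood at 53.2, 57, 22, 98.7 and 25.5 CPM on day 7 and 1.31, 1.75, 6.07, 2.64 and 4.34 CPM on day 13 (log2 fold change -4.01 ± 0.53 SE, 16.1-fold lower, adjusted p = 0.000284). TOP2A, the topoisomerase that untangles chromosomes, stood at 96.9, 81.9, 24.3, 155 and 44.8 CPM on day 7 and 3.53, 3.33, 9.74, 3.98 and 4.17 CPM on day 13 (log2 fold change -4.04 ± 0.52 SE, 16.5-fold lower, adjusted p = 0.000235). The lowest day 7 heifer for both was 4-064 and the highest 5-117, and the highest day 13 heifer was 5-167.

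UBE2C and CDC20, which serve the anaphase-promoting complex, ranged over 4.35 to 19.4 CPM on day 7 and 0.488 to 1.25 CPM on day 13 (log2 fold change -4.07 ± 0.46 SE, 16.7-fold lower, adjusted p = 0.000105) and over 2.84 to 15.9 CPM on day 7 and 0.225 to 1.25 CPM on day 13 (log2 fold change -4.06 ± 0.55 SE, 16.7-fold lower, adjusted p = 0.000318). ASPM of the spindle poles was at -3.90 ± 0.58 SE and NDC80 of the kinetochore at -3.86 ± 0.58 SE (log2 fold changes). The spindle motor KIF11 (-3.84 ± 0.58 SE), the kinetochore protein CENPF (-3.73 ± 0.50 SE), the checkpoint kinase BUB1B (-3.45 ± 0.50 SE), the mitotic kinase AURKB (-2.82 ± 0.41 SE) and the mitotic cyclins CCNB2 (-3.44 ± 0.48 SE) and CCNB1 (-0.99 ± 0.24 SE) fell as well. Summed over the list, the libraries held 765 to 1349.5 CPM on day 7 and 341 to 536 CPM on day 13.

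DNA replication genes moved less uniformly: of 27 tested, 10 fell and 2 rose (median -0.26), beside 15% and 13.8% of all genes. RRM2, the regulated subunit of ribonucleotide reductase, stood at 17.2, 19.9, 4.78, 35.1 and 5.91 CPM on day 7 and 0.751, 0.518, 4.75, 1.64 and 1.87 CPM on day 13 (log2 fold change -3.14 ± 0.69 SE, 8.83-fold lower, adjusted p = 0.00613), and at -3.77 without day 13 library 5-167. UHRF1, which takes part in the copying of DNA methylation, ranged over 11.6 to 37.1 CPM on day 7 and 3.75 to 6.24 CPM on day 13 (log2 fold change -2.16 ± 0.31 SE, 4.46-fold lower, adjusted p = 0.000437). POLE, the leading-strand polymerase, ranged over 14.8 to 28.5 CPM on day 7 and 2.94 to 6.41 CPM on day 13 (log2 fold change -1.86 ± 0.25 SE, 3.63-fold lower, adjusted p = 0.000297), and CDT1, a licensing factor, over 1.45 to 4.69 CPM on day 7 and 0.676 to 1.15 CPM on day 13 (log2 fold change -1.65 ± 0.33 SE, 3.13-fold lower, adjusted p = 0.00354). The 2 members that rose were the ligase LIG1 (log2 fold change 0.61 ± 0.11 SE, 1.52-fold higher, adjusted p = 0.00175) and RRM1, the other ribonucleotide reductase subunit (0.37). RRM1 had adjusted p up to 0.101 when 1 library was left out, and 1 member rose without library 2-1337, 4-064, 4-1314 or 5-140.

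**Figure D4:**
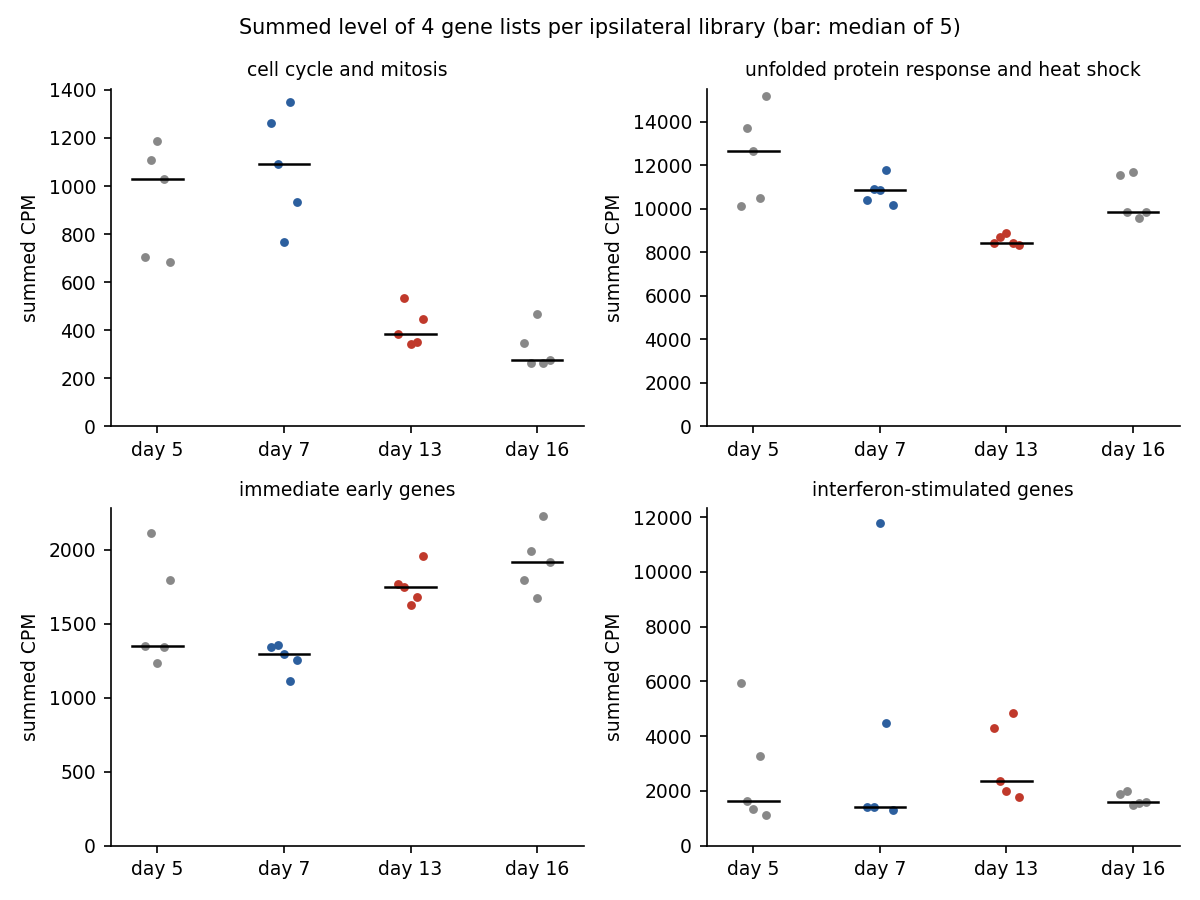
Summed CPM (y) of 4 gene lists in each ipsilateral library of days 5, 7, 13 and 16 (x), 5 points a day, with the median as a bar, day 7 in blue and day 13 in red. Day 7 and day 13 do not overlap for cell cycle, unfolded protein response and immediate early genes, while the interferon panel shows 1 day 7 library at 11788 CPM.

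Transcripts of many endoplasmic reticulum chaperones fell. In the unfolded protein response and heat shock list, which holds the chaperones that fold proteins in the endoplasmic reticulum, 20 of 32 fell, 2 rose and 10 did not pass (median -0.49), beside 15% and 13.8% of all genes tested. CRELD2 ranged over 24.1 to 33.4 CPM on day 7 and 9.83 to 13.3 CPM on day 13 (log2 fold change -1.41 ± 0.12 SE, 2.65-fold lower, adjusted p = 2.52e-05). SYVN1, the ubiquitin ligase of protein quality control, ranged over 135 to 189 CPM on day 7 and 62.4 to 94.9 CPM on day 13 (log2 fold change -1.05 ± 0.13 SE, 2.07-fold lower, adjusted p = 0.000233). Neither overlapped.

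Also without overlap were the losses of the folding helpers SDF2L1 (-1.14 ± 0.18 SE), MANF (-0.86 ± 0.09 SE) and CANX (-0.79 ± 0.09 SE) and of the disulfide isomerase P4HB (-0.76 ± 0.08 SE). HSPA5, the main chaperone of the compartment, was at -0.62 ± 0.07 SE. The list summed to 10161 to 11772 CPM on day 7 and 8356 to 8909.8 CPM on day 13. The 2 that rose were DDIT3 (0.45), with adjusted p up to 0.0621 without 1 of 2-371, 5-117, 6-338 and 5-140, and SEL1L (0.24), with 0.0527 without 4-064 and 0.0598 without 6-338. The number that rose was 1 without library 2-371, 4-064 or 5-140, 0 without 6-338 and 4 without 5-167.

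Immediate early genes, the transcription factors and modulators that cells induce within minutes of a stimulus, were higher on day 13. Of 25 tested 13 rose and 1 fell (median 0.58), beside 13.8% and 15% of all genes. EGR1 stood at 19, 25.9, 15, 18.4 and 17.6 CPM on day 7 and 46.6, 39.7, 46.3, 41.2 and 102 CPM on day 13 (log2 fold change 1.52 ± 0.27 SE, 2.86-fold higher, adjusted p = 0.00176), with heifer 8-275 far above the rest of day 13. IER3 ranged over 10.2 to 14.8 CPM on day 7 and 22.2 to 61.6 CPM on day 13 (log2 fold change 1.65 ± 0.24 SE, 3.13-fold higher, adjusted p = 0.00049). FOSL2 was at 0.80 ± 0.09 SE and KLF6 at 0.86 ± 0.12 SE (log2 fold changes).

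The list summed to 1111 to 1354 CPM on day 7 and 1627 to 1960.0 CPM on day 13. The member that fell was SOCS3 (-0.62), which had adjusted p = 0.0516 to 0.101 when 1 library other than 5-117 was left out. With all 20 ipsilateral libraries in the fit, or with the library total as a covariate, 7 members rose.

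Among signalling genes that pattern the uterus the ligands WNT7A, WNT11 and IHH fell and the receptor FZD8 rose. In WNT signalling 10 of 48 rose and 7 fell (median 0.05), beside 13.8% and 15% of all genes tested, and with the library total as a covariate 6 rose and 3 fell. Beside WNT7A, the ligand WNT11 fell (-1.04 ± 0.15 SE), and so did beta-catenin, CTNNB1, the carrier of the signal to the nucleus (-0.56 ± 0.07 SE). The receptor gene FZD8 ranged over 0.933 to 1.75 CPM on day 7 and 2.52 to 3.49 CPM on day 13 (log2 fold change 1.12 ± 0.21 SE, 2.17-fold higher, adjusted p = 0.0025). Other gains were those of the receptors FZD4 (0.52 ± 0.10 SE) and FZD1 (0.37 ± 0.10 SE), the co-receptor LRP6 (0.59 ± 0.10 SE) and the R-spondin receptor LGR4 (0.78 ± 0.15 SE).

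In the list of uterine transcription factors, 5 of 34 rose and 8 fell (median 0.21), beside the same shares of all genes. The homeobox gene MSX1, which is known for its role in receptivity, stood at 580.5, 472, 634, 662 and 582 CPM on day 7 and 177, 237, 162, 197 and 237 CPM on day 13 (log2 fold change -1.54 ± 0.13 SE, 2.9-fold lower, adjusted p = 2.08e-05). Its paralog MSX2 ranged over 9.81 to 18.4 CPM on day 7 and 1.21 to 2.44 CPM on day 13 (log2 fold change -2.90 ± 0.24 SE, 7.47-fold lower, adjusted p = 1.79e-05). IHH, the hedgehog ligand through which the epithelium signals to the stroma under progesterone, stood at 156, 112, 236, 149 and 213 CPM on day 7 and 31.6, 50.5, 24.7, 43.3 and 60.5 CPM on day 13 (log2 fold change -2.04 ± 0.26 SE, 4.11-fold lower, adjusted p = 0.000252). None of these 3 genes overlapped between the days.

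GATA2, a transcription factor of progesterone signalling, ranged over 293 to 409 CPM on day 7 and 119.9 to 164 CPM on day 13 (log2 fold change -1.25 ± 0.10 SE, 2.38-fold lower, adjusted p = 1.67e-05), without overlap. The members that rose, STAT5A, KLF9, EMX2, KLF5 and WT1, numbered 1 to 3 without library 2-371, 5-117, 6-338, 5-167, 6-203 or 8-275. WT1 lost its call without any 1 of these libraries and without 4-064. The losses numbered 5 without library 8-275.

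In the activin, BMP and TGF-beta family 7 of 33 rose and 6 fell (median 0.05), with MSTN at the top, beside 13.8% and 15% of all genes. NOG, the BMP antagonist noggin, was at 1.97 ± 0.53 SE. Of 20 genes of retinoid handling, CYP26A1, RBP4 and the receptor RXRA rose and 0 fell by edgeR (median -0.03), where 2 were lower at an unadjusted p below 0.05 and DESeq2 called 2 losses. RXRA ranged over 34.6 to 50.1 CPM on day 7 and 48.1 to 59.5 CPM on day 13 (log2 fold change 0.41 ± 0.10 SE, 1.33-fold higher, adjusted p = 0.0118), with 1 day 13 library inside the day 7 range. Without day 13 library 5-167, 5 of these genes rose and 1 fell, and without 4-064, 1 fell. The sum of the retinoid list was 770 to 888 CPM on day 7 and 1124 to 1315 CPM on day 13.

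Among matrix genes COL4A3 fell and COL4A5 rose. Of 25 collagen genes 2 fell and 1 rose (median -0.36), of 38 genes of other matrix proteins and cross-linking 4 fell and 1 rose (median -0.09), and of 26 matrix proteases and inhibitors 6 fell and 1 rose (median -0.17), beside 15% and 13.8% of all genes tested. With the library total as a covariate 2 of the proteases and inhibitors fell. COL4A3, a chain of specialised basement membranes, stood at 172, 196, 183, 211 and 136 CPM on day 7 and 22, 33.1, 75.6, 98.9 and 32.8 CPM on day 13 (log2 fold change -1.78 ± 0.37 SE, 3.44-fold lower, adjusted p = 0.0044). COL4A5, its partner in the same network, ranged over 50.9 to 84 CPM on day 7 and 85.4 to 144 CPM on day 13 (log2 fold change 0.81 ± 0.17 SE, 1.75-fold higher, adjusted p = 0.0049) and rose, with adjusted p = 0.147 when all 20 ipsilateral libraries were fitted.

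PLOD1, which hydroxylates collagen for cross-linking, ranged over 183 to 362 CPM on day 7 and 65.9 to 121 CPM on day 13 (log2 fold change -1.65 ± 0.19 SE, 3.14-fold lower, adjusted p = 0.000138). MMP28, an epithelial metalloprotease, ranged over 40.5 to 73.7 CPM on day 7 and 8.77 to 14.7 CPM on day 13 (log2 fold change -2.24 ± 0.20 SE, 4.73-fold lower, adjusted p = 2.62e-05). TIMP3 ranged over 314 to 569.9 CPM on day 7 and 206 to 277 CPM on day 13 (log2 fold change -0.85 ± 0.15 SE, 1.8-fold lower, adjusted p = 0.00179), against the gain of TIMP2. Without day 7 library 4-064, whose collagen sum was the lowest of its day, 9 collagens fell. That sum was 14112 CPM beside up to 28399 CPM in the other day 7 libraries, and it was 13638 to 22076 CPM on day 13. The other collagen that fell was COL1A1, the main chain of type I collagen (-0.65), with adjusted p up to 0.0994 when 1 library was left out. The collagen losses numbered 1 without 2-1337, 2-371, 5-140 or 8-275, and the gains 2 without 6-338. The gains of the matrix protein list numbered 2 or 3 without 2-1337, 2-371, 5-117 or 5-140, and those of the protease list 2 without 2-371 or 5-140.

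Defence genes varied among heifers of 1 day. Of 40 interferon-stimulated genes, 0 rose and 0 fell by edgeR's test (median -0.53), beside 13.8% and 15% of all genes. DESeq2 and limma-voom also called 0. At an unadjusted p below 0.05, 1 was lower and 0 were higher. The list summed to 11788 CPM in day 7 heifer 4-064 and 4478 CPM in 5-117, against 1296 to 1415 CPM in the other 3, and to 1759 to 4840 CPM on day 13. ISG15, a ubiquitin-like protein that interferon induces, stood at 4.67, 4.49, 333, 51.4 and 1.88 CPM on day 7 and 51.1, 12.4, 11.9, 61 and 8.38 CPM on day 13 (-1.44 ± 1.24 SE, adjusted p = 0.42). Without library 4-064 its log2 fold change was 0.89 (adjusted p = 0.542), the median of the list was 0.50 and 2 members rose. With limma-voom the median over all 10 libraries was 0.04.

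Of 26 mucosal defence genes, 4 rose and LTF fell (median 0.17), beside 13.8% and 15% of all genes. PIGR, the receptor that carries immunoglobulin A across epithelium, stood at 1.5, 2.22, 2.1, 1.3 and 0.231 CPM on day 7 and 8.74, 6.38, 6.72, 37.5 and 12.6 CPM on day 13 (log2 fold change 3.27 ± 0.64 SE, 9.67-fold higher, adjusted p = 0.00316), and at 2.56 without day 13 library 6-203. The complement regulators CD59 and CD55 ranged over 42.9 to 56.5 CPM on day 7 and 121 to 178 CPM on day 13 (log2 fold change 1.72 ± 0.13 SE, 3.29-fold higher, adjusted p = 1.08e-05) and over 32.8 to 58.4 CPM on day 7 and 99.9 to 134 CPM on day 13 (log2 fold change 1.22 ± 0.16 SE, 2.33-fold higher, adjusted p = 0.000237). The fourth was CLU. Without 4-064, 9 members rose, and the losses numbered 3 without 6-338 and 2 without 6-203.

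Marker lists of cell types were mixed or mostly did not pass. Of 22 epithelial markers 5 rose and 8 fell (median -0.21), beside 13.8% and 15% of all genes, so the list had no common direction. CLDN4, a tight junction protein, stood at 26.6, 37.6, 30.3, 28.6 and 26.9 CPM on day 7 and 175, 170.3, 107, 153 and 131 CPM on day 13 (log2 fold change 2.29 ± 0.16 SE, 4.9-fold higher, adjusted p = 5.8e-06). PRSS8, an epithelial surface protease, ranged over 16 to 20.5 CPM on day 7 and 30.3 to 70.01 CPM on day 13 (log2 fold change 1.32 ± 0.22 SE, 2.5-fold higher, adjusted p = 0.00129). RAB25, a regulator of apical recycling, ranged over 38.7 to 80.1 CPM on day 7 and 27.8 to 34.8 CPM on day 13 (2.01-fold lower, adjusted p = 0.00113). All 3 separated the days. EPCAM, the general adhesion molecule of epithelia, was at 0.75 ± 0.20 SE.

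Of 25 genes of ciliated cells 5 fell and 0 rose by edgeR (median -0.73), beside 15% and 13.8% of all genes. By edgeR 0 were higher at an unadjusted p below 0.05, and DESeq2 called 10 losses and no gain. CAPS ranged over 55.5 to 177 CPM on day 7 and 30.4 to 49.9 CPM on day 13 (log2 fold change -1.25 ± 0.28 SE, 2.38-fold lower, adjusted p = 0.00715) without overlap and RSPH1 over 6.92 to 28.8 CPM on day 7 and 3.92 to 9.06 CPM on day 13 (log2 fold change -1.27 ± 0.34 SE, 2.4-fold lower, adjusted p = 0.0178) with overlap. The number that fell was 11 without library 2-1337, 3 without any 1 of 2-371, 5-117, 6-338, 4-1314, 6-203 and 8-275, and 0 with the library total as a covariate. Of 16 smooth muscle genes 6 rose and 0 fell by edgeR (median 0.41), beside 13.8% and 15% of all genes. DESeq2 called no loss, and by edgeR 0 were lower at an unadjusted p below 0.05. Of these genes 2 rose with all 20 ipsilateral libraries in the fit and 0 with the library total as a covariate. MYH11, the heavy chain of smooth muscle myosin, ranged over 46.6 to 82.5 CPM on day 7 and 68.9 to 249 CPM on day 13 (log2 fold change 1.11 ± 0.31 SE, 2.15-fold higher, adjusted p = 0.0194) with overlap. KCNMB1, a potassium channel subunit of smooth muscle, ranged over 0.99 to 1.69 CPM on day 7 and 1.97 to 7.5 CPM on day 13 (log2 fold change 1.57 ± 0.34 SE, 2.96-fold higher, adjusted p = 0.00591), and with all 20 libraries MYH11 and KCNMB1 had adjusted p = 0.120 and 0.108. The summed smooth muscle markers overlapped between the days, with the ranges given above, and their part in the other results was not tested.

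In the lists of stromal fibroblasts (16 genes), endothelium (20), T and NK cells (23), B and plasma cells (10), macrophages and dendritic cells (20), and neutrophils and mast cells (9), 2 genes rose and 4 fell in all, of the 98 tested. Both shares were below those of all genes tested, of which 13.8% rose and 15% fell. By name they were PDGFRA (0.56) and KDR (0.72) among gains and S100A4 (-1.02), COL1A1 (-0.65), FLT4 (-0.80) and IRF4 (-2.03) among losses. Except for S100A4, each lost its call without at least 1 library: adjusted p reached 0.0994 for COL1A1, 0.0975 for FLT4, 0.102 for IRF4, 0.0572 for PDGFRA and 0.0504 for KDR. Without 4-064, 4 stromal genes fell and 2 genes of T and NK cells rose, and without 5-167, 5 endothelial genes rose. In the lists of T and NK cells, macrophages and dendritic cells, and neutrophils and mast cells, edgeR called 0 genes, with 0, 1 and 1 lower at an unadjusted p below 0.05 and 0 higher, and DESeq2 called 0, 1 and 1. Of the 10 red blood cell genes only AHSP, which encodes a chaperone of alpha globin, was tested. It ranged over 0.494 to 1.03 CPM on day 7 and 1.31 to 1.62 CPM on day 13 (log2 fold change 0.92 ± 0.24 SE, 1.9-fold higher, adjusted p = 0.0149). AHSP does not stand for its list. The 10 genes summed to 1.53 to 17.4 CPM on day 7 and 1.49 to 2.33 CPM on day 13. Over the alternatives the list's median log2 fold change ran from -3.53 to 1.04. In the contralateral horn 2 members were tested, and 1 fell and 0 rose (median -3.43).

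A few genes were all but absent on 1 of the days. Under 3 counts in every day 7 library, 6 genes rose, and under 3 counts in every day 13 library, 8 fell. Such genes passed the filter on low counts only through the day on which they were high, so their direction was fixed in advance. The same holds for CALB1 and SLC5A11, whose day 7 values all lay below the level that the filter asks for. It also holds for CDK5R2 and SLC2A5, whose day 13 values all did. UGT2B10, a glucuronidating enzyme, had 0 counts in every day 7 library and 0.347 to 2.25 CPM on day 13, at least 11.9-fold higher against a floor of 3 counts a library. CLDN22, a claudin, had 0.679 to 16.2 CPM on day 7 and 0 counts in every day 13 library, at least 60.5-fold lower, or at least 35.6-fold without day 7 library 5-117, where it was highest. KRT72, a keratin, had 0.396 to 0.859 CPM on day 7 and 0 counts on day 13, at least 5.29-fold lower.

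The other sampled days place these levels in the course of the cycle, with no test between those days here. In some genes day 7 had the highest mean of the 4 days. ANPEP was at 282 ± 136 CPM (SD, n = 5) on day 5 and 92.9 ± 134 CPM on day 16, beside 1306 ± 169 on day 7 and 46.4 ± 13.9 on day 13. SLC13A5 was at 288 ± 133, 1685 ± 325, 183 ± 56.9 and 129 ± 254 CPM over days 5, 7, 13 and 16, and ODC1 at 388 ± 142, 1078 ± 219, 74.9 ± 10.2 and 122 ± 105 CPM. For each of the 3 the ranges of days 5 and 7 did not overlap. The day 16 means rest on the library of heifer 5-137, which lay at -8.1 on the first principal component, with the other 4 between -45.4 and -38.6. Without it the day 16 means were 33.1 ± 7.92 CPM for ANPEP, 15.3 ± 10.5 CPM for SLC13A5 and 75.6 ± 13.6 CPM for ODC1 (SD, n = 4).

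MSTN had its lowest mean on day 7. It was at 18.1 ± 10.9, 1.9 ± 1.14, 22.5 ± 6.65 and 16.7 ± 5.46 CPM over the 4 days. The mean of CYP26A1 was highest on day 13, with 0.594 ± 0.499, 0.795 ± 0.679, 206 ± 44.1 and 49.7 ± 32.8 CPM. CFTR, in contrast, was at 231 ± 82.9 CPM on day 16 and NPNT at 593 ± 117 CPM, above their day 13 means of 137 ± 38.7 and 449 ± 132. PGR was at 16.9 ± 2.69 CPM on day 5, 8.46 ± 1.85 on day 7, 3.96 ± 0.934 on day 13 and 5.64 ± 0.986 on day 16.

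The change from day 7 to day 13 had nearly always the same direction in the contralateral horn, in libraries that took no part in the ipsilateral test. There, 5388 of 18642 genes passed (28.9%). Of the ipsilateral genes that rose, 2567 were tested in the contralateral horn, 2566 had the same direction and 1986 (77.4%) passed there. Of those that fell, 2796 were tested, 2796 had the same direction and 2251 (80.5%) passed. No gene passed in opposite directions, and the 4237 genes that passed in both horns are 78.3% of the ipsilateral and 78.6% of the contralateral calls. The horns come from the same heifers, so they repeat the tissue and not the animals.

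Median sizes were close too. For the genes that rose at least 2-fold in the ipsilateral horn the median log2 fold change was 1.47 there and 1.48 in the contralateral horn, and for those that fell at least 2-fold -1.62 and -1.57. IGFBP1 was at 10.35 ± 0.70 SE in the contralateral horn and CYP26A1 at 9.08 ± 0.37 SE, both above their ipsilateral estimates. In the same horn PTGS2 was at 4.18 ± 0.39 SE, ANPEP at -4.92 ± 0.18 SE, MKI67 at -4.01 ± 0.54 SE and PGR at -1.04 ± 0.25 SE. The cell cycle list had 29 losses and 1 gain of 37 there and a median of -2.93, the unfolded protein response list 18 losses and 2 gains of 32, and the immediate early genes 13 gains and 1 loss of 25.

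A direct test of whether the day change differs between the horns, over the 20 libraries of both horns and 19641 genes, called no gene (0%). By edgeR's quasi-likelihood test 193 genes had an unadjusted p below 0.05 and the smallest adjusted p was 0.9999, and DESeq2 also called 0. By DESeq2 233 genes had an unadjusted p below 0.05. Both counts lie below the 1 in 20 of genes that chance alone would give at that threshold. The 0 calls therefore do not show that the horns change alike. That libraries of both horns come from shared heifers is not modelled in this test, and the tags that would link them are those set against the data above.

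**Figure D5:**
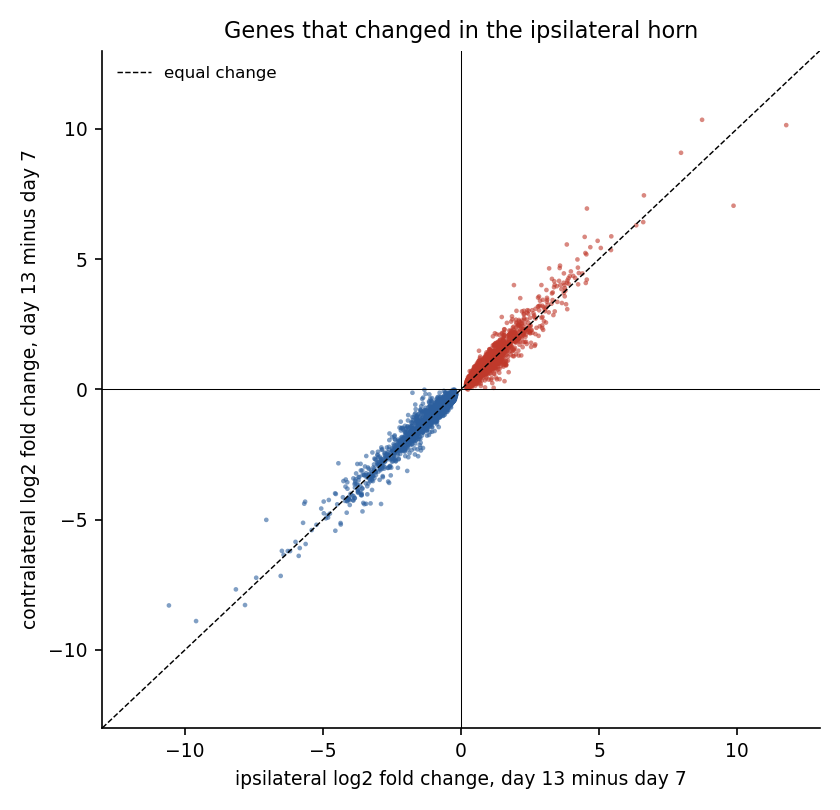
Contralateral (y) against ipsilateral (x) log2 fold change from day 7 to day 13 for 5363 genes that changed in the ipsilateral horn and were tested in both, red for the 2567 that rose and blue for the 2796 that fell. The points follow the dashed line of equal change, with 1 gene on the other side of 0 in the contralateral horn.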

How the data were processed

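RNA of bovine endometrium was measured by stranded poly(A) RNA-seq (TruSeq kit) after Trizol extraction and DNase treatment, per the labels' protocols. The deposited values are counts, not normalized, 1 row a gene, which the authors made with HISAT2 and featureCounts after FastQC on build UMD3.1, per the submitters' processing notes, without versions. Of its 32671 gene rows 3987 had no reads. The mitochondrial row, 0.124% to 0.526% of reads in these libraries, and a row that repeats the titles stayed out of library sizes and tests. The table has 12594 LOC names and 27 names turned into dates, which were tested and counted but not named. The reference given was another build, so no coordinates are printed.

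Day 13 was compared with day 7 over the 10 ipsilateral libraries with edgeR's quasi-likelihood test (edgeR 4.0.16, R 4.3.3), TMM factors, edgeR's default filter on low counts, and Benjamini-Hochberg adjustment over all genes tested, at 0.05. Every adjusted p in the text without another tool's name comes from this test. Standard errors are the log2 fold change divided by the square root of its F value. The fitted fold is not a ratio of printed CPM means. Library measures were compared by exact permutation tests, and the pipeline was tested on simulated data. CPM does not correct for gene length. Alternatives were RLE scaling, DESeq2 1.42.0, no filter, limma-voom (limma 3.58.1), all 20 ipsilateral libraries or those of both horns in the fit, a library-total covariate, a robust fit and leaving out each library.

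The comparison and the 34 gene lists were chosen with earlier results of these data known. Named genes came from a rule: the 15 highest and 15 lowest fold changes among genes with an average log2 CPM of at least 2 and no overlap of days, the 10 most abundant changed at least 2-fold, up to 6 members a list, genes under 3 counts in every library of 1 day, and 10 fixed genes. The rule gave 184 genes. Of these the text gives CPM values or a standard error for those whose call held without each library in turn, and for the fixed genes. Where other rule genes are named, such as COL1A1 and WT1, the loss of their call is given. ODC1 and other list members were added after their values were seen, and where such a gene lost its call without a library, that is said. For STAT5A, KLF9, EMX2 and KLF5 it is said only through the number of members that rose. Some genes are not reported here.

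The heifer tags of the labels link horns, not days. Over 15176 genes, deviations from the group means correlated above 0.1 between horns under the same tag in 4 of 10 heifers, and 7 of 10 libraries correlated best with another tag, so the tags were not used as pairs in the test between horns.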

Additional observations from a re-analysis of the deposited data

Results flagged for a closer look

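Among the groups of 5 ipsilateral libraries, 1 for each described gene or gene list on each day, 20 held 1 library set apart from the other 4 (5.43%). Chance alone flags about 1 in 20 such groups. The library of day 13 heifer 5-167 gave 7 of them, that of day 7 heifer 5-117 gave 5 and that of day 7 heifer 4-064 gave 3.

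Heifer 5-167 had the highest day 13 level of the mitotic genes TOP2A (9.739 CPM, the others 3.334 to 4.172), NDC80 (1.525 CPM, the others 0.1876 to 0.4856) and CDC20 (1.248 CPM, the others 0.2252 to 0.4856). The same library had the lowest CFTR (69.04 CPM, the others 141.1 to 163.1) and GRP (1150 CPM, the others 2205 to 2515). Its stromal fibroblast markers summed to 19140 CPM, above 14570 to 15540 in the others, and its endothelial markers to 775.6 CPM, below 1094 to 1166. For TOP2A, NDC80, CDC20, CFTR and GRP its value lay on the day 7 side of its group.

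Day 7 heifer 5-117 stood above the others in HKDC1 (7.776 CPM, the others 0.9583 to 1.961), SPP1 (72.19 CPM, the others 5.991 to 20.22), TFF3 (35.04 CPM, the others 17 to 20.08) and POLE (28.5 CPM, the others 14.76 to 17.48), and its DNA replication genes summed to 1017 CPM, above 784.4 to 838.9. Day 7 heifer 4-064 stood above the others in ISG15 (333 CPM, the others 1.884 to 51.44) and LTF (1032 CPM, the others 399.4 to 434.4), and its mucosal defence genes, LTF included, summed to 3645 CPM, above 1608 to 1732.

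On day 13, heifer 8-275 was highest for EGR1 at 102.2 CPM and for LRG1 at 1.391 CPM. Heifer 6-203 was highest for PIGR at 37.54 CPM, heifer 4-1314 for S100A4 at 75.96 CPM and heifer 5-140 for WNT11 at 35.9 CPM.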

How the results depend on the processing

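The count of changed genes (5412) lay between 5075 and 6564 with RLE scaling, DESeq2, no filter, limma-voom, a robust fit or 20 libraries in the fit. With the log2 library total as a covariate it was 3234, of which 1486 rose and 1748 fell, and 58.1% of the genes called without it were called. The share of gains among the changed genes was 48% and lay between 45.9% and 54.5% over these settings. Leaving out 1 library at a time gave 4646 to 5506 changed genes, 2172 to 2809 that rose and 2345 to 2697 that fell. With the covariate, counts of gains and losses were 1 and 3 for amino acid carriers, 3 and 8 for lipid genes, 1 and 4 for DNA replication, 6 and 3 for WNT signalling, 3 and 1 for the IGF system, 1 and 5 for transcription factors, 3 and 4 for epithelium, 0 and 16 for the unfolded protein response and 0 and 26 for cell cycle. They were 6 and 2 for cholesterol, 11 and 5 for secreted products, 3 and 4 for steroid receptors, 2 and 1 for prostaglandins, 2 and 1 for peptidases, 3 and 2 for ion transport, 4 and 5 for the activin family, 7 and 0 for immediate early genes, and 1 and 1, 1 and 2 and 1 and 2 for collagens, other matrix proteins and matrix proteases. Stromal fibroblasts had 0 and 1, and endothelium, ciliated cells, smooth muscle and red blood cells 0 and 0.

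Of 209 genes that passed and are named by the rule or in the text, 146 passed under every alternative, 63 did not under at least 1 and 32 did not without at least 1 library. ISG15, which did not pass in any fit, was the 1 gene to change sign, with 0.44 by limma-voom and, without single libraries, -1.91 to 0.89, the latter without day 7 library 4-064. Among fold changes that moved by over 1.5 times, limma-voom gave 9.59 for IGFBP1, 7.66 for MUC13, -6.87 for LRG1 and -7.06 for WNT7A, and the covariate 4.52 for HKDC1. The causes were not tested.

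The horn test called 0 genes under every alternative, with 75 to 461 at an unadjusted p below 0.05. With the heifer tag as a replicate block it called 0, with 145 unadjusted, but the block rests on tags that the data do not bear out: a library's own tag was its best match in 3 of 10 (correlations from -0.37 to 0.84), and best matches under another tag reached 0.88. No other pairing was fitted. Genes with few counts limit the precision, and intervals from 5 libraries a day do not show that a gene that missed the threshold was equal.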

Other observations

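Genes grouped by the start of their symbols, after the data had been seen, gave further counts from day 7 to day 13, and some families, such as kinesins, S100 proteins and uroplakins, hold genes already given above. Of 38 nuclear subunits of respiratory complex I, the first enzyme of the mitochondrial electron chain, 28 fell and 0 rose by edgeR, with a median log2 fold change of -0.36. Their sum was 1838 to 1956 CPM in the day 7 libraries and 1322 to 1423 CPM in the day 13 libraries. The mitochondrial row, which stands for transcripts of the mitochondrial genome, took a higher share of reads in every ipsilateral library of day 13 than of day 7. In the contralateral horn the days overlapped, with 0.263% in day 13 library 4-1314 and 0.329% in day 7 library 4-064. Mitochondrial ribosomal proteins gave 13 losses and 3 gains of 77 (median -0.04), with sums of 2876 to 3665 and 1969 to 2463 CPM.

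Vesicle and translocation genes fell in number as well. Of 19 genes of the COPI and COPII coats, which carry cargo between the endoplasmic reticulum and the Golgi, 11 fell and 1 rose (median -0.29), and their sum was 3119 to 3423 CPM on day 7 and 2221 to 2381 CPM on day 13. Of 23 genes of signal recognition and the translocon, which bring new proteins into the reticulum, 13 fell and 0 rose by edgeR (median -0.28). Of 11 oligosaccharyltransferase genes, which add sugars there, 5 fell and 2 rose. Cytosolic ribosomal proteins had 20 losses and no gain of 83, with overlapping sums of 35059 to 39943 and 31400 to 38083 CPM.

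Other families were mixed. Cadherins and protocadherins gave 6 gains and 2 losses of 44, V-type proton pump subunits 1 gain and 8 losses of 22, S100 proteins 1 gain and 6 losses of 12, and kinesins 4 gains and 13 losses of 40. Uroplakins, 4 genes, summed to 139 to 304 CPM on day 7 and 11.9 to 18.5 CPM on day 13, with 1 gain and 1 loss. As the families were picked after the values were known, their counts are descriptions, to be read against 13.8% and 15% of all genes.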
